A study of Mus musculus with 5 samples.

Results

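The 6 genes described here belong to arginine and nitric oxide metabolism: *Slc7a2*, *Nos2*, *Gch1*, *Ass1*, *Asl*, and *Odc1*. They were chosen by name, with earlier results of these data known, and matched to their Entrez Gene numbers. Each was found among the 17058 genes with a count in at least 1 library. All 6 also belonged to the 12576 genes kept by edgeR's low-count filter and tested. The 5 RNA-Seq libraries came from BMDMs, macrophages grown from bone marrow, of BALB/c mice that carried no deletion themselves. The mouse mammary carcinoma line 4T1 was grown with them for 48 hours behind a porous membrane, as the unedited WT line in 2 libraries and after CRISPR/Cas9 deletion of *Adam17* in 3 libraries (Adam17-/-). ADAM17 is a membrane protease that releases growth factors and cytokine receptors from the cell surface, and the comparison asks how its loss in the cancer cells changes the RNA of the macrophages. According to the study's methods, the macrophages had been differentiated from marrow with M-CSF over several days. All Adam17-/- libraries bear the same knock-out designation in the labels, so that the deletion and any other trait of that line cannot be told apart, and there were no macrophages cultured alone. The labels do not say whether the repeats came from separate mice or cultures, so that the p-values measure the spread between these libraries, which may be technical.

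Macrophages take up arginine through cationic amino acid transporters, of which the *Slc7a2* product CAT-2 is the form that inflammatory stimuli induce. Inside the cell, inducible nitric oxide synthase (*Nos2*) turns arginine into nitric oxide and citrulline and needs tetrahydrobiopterin, a cofactor whose synthesis begins with GTP cyclohydrolase (*Gch1*). Argininosuccinate synthase (*Ass1*) and argininosuccinate lyase (*Asl*) rebuild arginine from citrulline. Arginine is also the source of ornithine, from which ornithine decarboxylase (*Odc1*) makes polyamines. In mouse macrophages *Nos2* is known for its induction by microbial products and interferon gamma, and the nitric oxide it yields acts against microbes and tumor cells.

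The transporter gene *Slc7a2* (chromosome 8, 40862341 to 40922070, plus strand, GRCm38) has 2 listed transcripts that differ in coding sequence only at exon 7, while their other 10 coding exons are shared. The alternative exons are shown because the libraries give a level for each form. This alternative exon encodes a loop of the transporter that is known to set its affinity for arginine. The exon 7 lying upstream spans chr8:40908056-40908195 and is 140 bases long, and the exon 7 lying downstream spans chr8:40908398-40908534 and is 137 bases long. Aligned with each other, they share 84 of 140 columns (60.0%), and capitals mark the bases that differ between them.
Upstream exon 7: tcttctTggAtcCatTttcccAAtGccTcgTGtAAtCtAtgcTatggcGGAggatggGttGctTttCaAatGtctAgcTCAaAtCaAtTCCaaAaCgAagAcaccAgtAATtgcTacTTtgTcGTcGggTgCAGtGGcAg
Downstream exon 7: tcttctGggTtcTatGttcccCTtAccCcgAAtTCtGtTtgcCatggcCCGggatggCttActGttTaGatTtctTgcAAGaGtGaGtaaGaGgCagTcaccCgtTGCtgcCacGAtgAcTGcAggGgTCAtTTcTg

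The upstream form carried nearly all of the *Slc7a2* signal in every library. On the FPKM scale, which divides by transcript length and library size, it stood at 16.22 and 21.86 in WT replicates 1 and 2, and at 39.29, 37.8, and 41.29 in Adam17-/- replicates 1, 2, and 3. The downstream form stood at 0.94 and 0.81 FPKM against 2.15, 1.81, and 2.32 FPKM. Both forms were higher in every Adam17-/- library than in either WT library. The upstream form therefore held 94.5% and 96.4% of the gene's FPKM in WT replicates 1 and 2, against 94.8%, 95.4%, and 94.7% in Adam17-/- replicates 1, 2, and 3, so that the shares overlapped between the groups while the levels did not. The division of reads between the forms is the authors' estimate.

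Libraries held 14658694 to 20788373 counts, and 3 counts, taken as the floor, corresponded to 0.157 to 0.197 CPM (read counts scaled to library size after TMM normalization). The 8 defining macrophage markers were abundant, with a summed FPKM of 16309 and 16379 in the WT and 11345 to 12306 in the Adam17-/- libraries, and 6 of the 8 fell while 0 rose. The 8 epithelial markers of mammary carcinoma summed to 2.90 to 3.92 FPKM in all libraries, most of it from *Cdh1* at 2.33 to 3.17 FPKM (not passed), with *Epcam* at 0 to 0.03 FPKM. Of 10 neutrophil markers, 8 reached the level that the low-count filter asks for, 0.549 CPM, in at least 2 libraries of both groups, and of these 6 rose and 0 fell, while the list's summed FPKM was 1028 and 1038 in the WT and 2709 to 3049 in the Adam17-/- libraries. Sums for markers of dendritic cells were 3.27 and 4.97 against 7.65 to 10.9 FPKM (2 of 4 tested rose, 0 fell), for fibroblasts 3.04 and 3.33 against 3.15 to 13.62 FPKM (1 of 2 at the filter's level in both groups rose, 0 fell), for basophils, eosinophils, and mast cells 1.46 and 1.62 against 1.81 to 6.26 FPKM (0 of 1 at that level in both groups passed), and for lymphocytes 0.17 to 0.67 FPKM (0 tested). In bulk RNA, more cells of a type and more RNA per cell cannot be told apart, and the part of these marker shifts in the results below was not tested. *Adam17* itself, whose deletion was confined to the cancer cells, was at 198 and 200 CPM in the WT and 152, 164, and 161 CPM in the Adam17-/- cocultured macrophages (log2 fold change -0.32, adjusted p = 0.0129, edgeR), a call held in 6 of 13 alternatives.

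Macrophages cocultured with Adam17-/- cancer cells had more *Nos2* and *Slc7a2* RNA and less *Gch1* RNA than those cocultured with WT cells, while *Ass1*, *Asl*, and *Odc1* did not pass the test. By edgeR's quasi-likelihood test at a Benjamini-Hochberg threshold of 0.05, 2 of the 6 genes were higher and 1 was lower. Among all 12576 genes tested, 31.7% passed, 14.9% higher and 16.8% lower. In 3 of the 6 genes the libraries of the 2 groups did not overlap, 2 with Adam17-/- above and 1 with it below, and among all genes tested 58.0% did not overlap (28.3% above and 29.7% below). The median log2 fold change of the 6 genes was -0.06, beside 0.01 for all genes tested. *Nos2*, and with all 5 libraries in edgeR with TMM no other of the 6, also changed by at least 1 on the log2 scale (*Slc7a2* did with library size only, in both FPKM fits, and without WT replicate 2, at 1.04 to 1.10), a size that 3.36% of all genes reached upward and 0.867% downward together with the threshold.

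**Figure D1:**
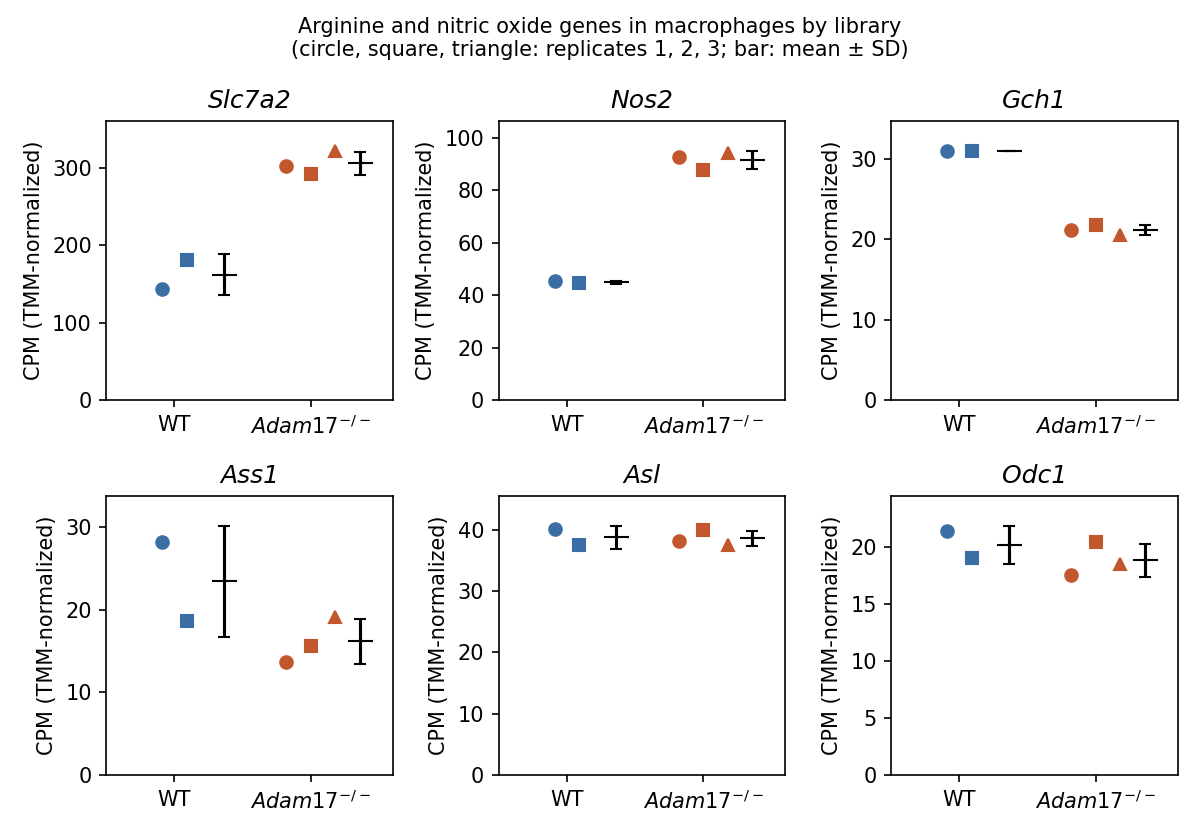
Normalized level of each gene (CPM, y axis from 0) in the 2 WT and 3 Adam17-/- coculture libraries, 1 panel a gene, with each library as a point and the mean ± SD as a bar. The Adam17-/- points lie above the WT points for *Slc7a2* and *Nos2* and below them for *Gch1*, and the WT libraries of *Ass1* stand at 28.2 and 18.7 CPM, the lower of them within the range of the 3 Adam17-/- libraries.

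Uptake was represented by *Slc7a2* (Entrez Gene 11988), the inducible arginine transporter. It was at 143 and 181 CPM in WT replicates 1 and 2 and at 303, 293, and 322 CPM in Adam17-/- replicates 1, 2, and 3. The WT libraries differed from each other, yet the lowest Adam17-/- library was above the higher of them by more than the WT libraries were apart. The means were 162 ± 26.6 CPM (SD, n = 2) and 306 ± 15.1 CPM (SD, n = 3). The fitted change was 0.92 on the log2 scale (standard error 0.109, 95% interval 0.67 to 1.16, adjusted p = 0.00065, edgeR), which ranked 683 from the top among the 12576 genes tested. The summed counts of *Slc7a2* were not whole numbers in Adam17-/- replicates 1 and 3, and its level is uncertain to the extent that reads were divided with other genes.

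*Nos2* (Entrez Gene 18126; chromosome 11, 78920787 to 78960226, plus strand), which encodes the inducible nitric oxide synthase, was at 45.2 and 44.5 CPM in the WT libraries and at 92.6, 87.6, and 94.3 CPM in the Adam17-/- libraries. These values rest on 864 and 823 counts against 1692, 1332, and 1781 counts, all whole. The libraries within each group lay close together, and the gap between the groups was many times the spread within them. Means were 44.9 ± 0.479 CPM (SD, n = 2) and 91.5 ± 3.47 CPM (SD, n = 3), and the fitted change was 1.03 on the log2 scale (standard error 0.0848, 95% interval 0.84 to 1.22, adjusted p = 0.000189, edgeR). Of its 3 listed transcripts, the longest made up 96.0% and 100% of its FPKM in WT replicates 1 and 2, against 94.0%, 93.6%, and 95.8% in Adam17-/- replicates 1, 2, and 3, and the other two held the rest, both at 0 in WT replicate 2 and 1 of them at 0 in WT replicate 1 and Adam17-/- replicate 1. The remaining nitric oxide synthases were hardly detected: *Nos1* (neuronal) was at 0.01 to 0.03 FPKM and *Nos3* (endothelial) at 0 to 0.02 FPKM, with at most 7 counts in a library, and neither passed the filter. These 2 genes were named after their values had been seen.

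*Gch1* (Entrez Gene 14528; chromosome 14, 47153895 to 47189413, minus strand), which encodes the enzyme that opens synthesis of the cofactor of nitric oxide synthase, went the other way. It was at 31.0 CPM in either WT library and at 21.2, 21.8, and 20.5 CPM in the Adam17-/- libraries. Libraries of a group were almost level, and every Adam17-/- library was below the WT libraries. Mean levels were 31.0 ± 0.0173 CPM (SD, n = 2) and 21.2 ± 0.616 CPM (SD, n = 3), a change of -0.55 on the log2 scale (standard error 0.0919, 95% interval -0.76 to -0.34, adjusted p = 0.00265, edgeR). The RNA of the synthase and the RNA of the first enzyme for its cofactor thus moved in opposite directions in the same libraries.

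For the recycling of citrulline, *Asl* and *Ass1* gave different pictures. *Asl* (Entrez Gene 109900; chromosome 5, 130011258 to 130024381, minus strand) was at 40.1 and 37.4 CPM in the WT and at 38.3, 40.0, and 37.5 CPM in the Adam17-/- libraries. The groups overlapped, and the log2 fold change of -0.01 had a 95% interval of -0.21 to 0.19 (standard error 0.0884, adjusted p = 0.952, edgeR). *Ass1* (Entrez Gene 11898; chromosome 2, 31470270 to 31520670, plus strand) was at 28.2 and 18.7 CPM in the WT and at 13.7, 15.7, and 19.1 CPM in the Adam17-/- libraries. WT replicate 1 stood above all others, whereas WT replicate 2 lay within the range of the Adam17-/- libraries. The change of -0.53 on the log2 scale (standard error 0.187, 95% interval -0.95 to -0.12) did not pass after adjustment (adjusted p = 0.0536, edgeR), and its interval is the widest of the 6 genes. The 2 WT libraries of *Ass1* were 1.51-fold apart, a gap reached by 2.92% of the 8487 genes with a mean of 10 CPM or more. The outcome rested on which libraries were used. Without WT replicate 1 the log2 fold change was -0.20 (adjusted p = 0.353, edgeR), without WT replicate 2 it was -0.80 (adjusted p = 0.00121, edgeR), and without Adam17-/- replicate 3 it was -0.66 (adjusted p = 0.0458, edgeR). *Ass1* also passed with DESeq2 (adjusted p = 0.0261), and its counts were not whole in 1 library.

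*Odc1* (Entrez Gene 18263; chromosome 12, 17544808 to 17551502, plus strand), which encodes the enzyme that commits ornithine to polyamines, was at 21.4 and 19.0 CPM in the WT and at 17.6, 20.4, and 18.5 CPM in the Adam17-/- libraries. The groups overlapped. The fitted change was -0.11 on the log2 scale (standard error 0.113, 95% interval -0.36 to 0.15, adjusted p = 0.503, edgeR).

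**Figure D2:**
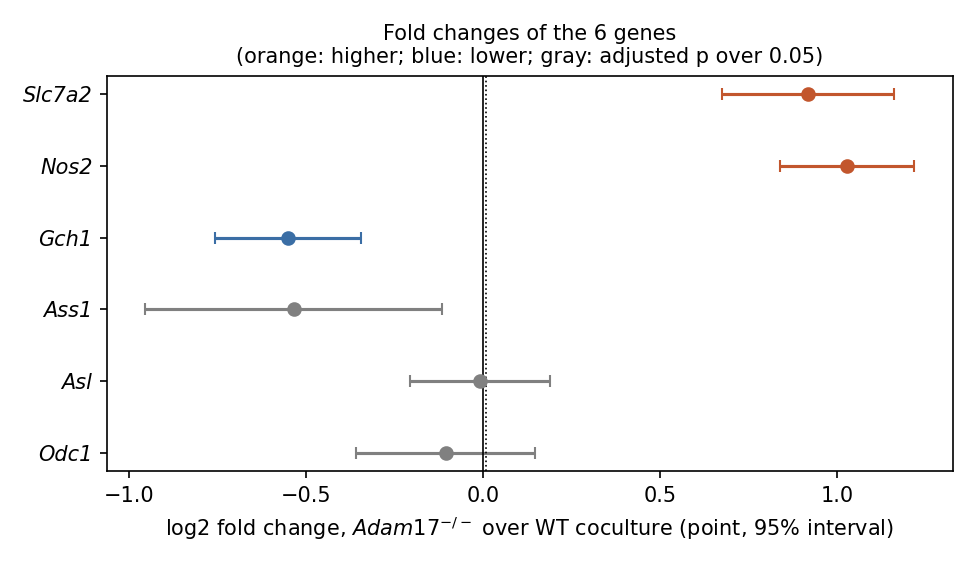
Log2 fold change (x axis) of each of the 6 genes in macrophages cocultured with Adam17-/- over WT 4T1 cells, with the fitted value as a point and its 95% interval as a bar; the dotted line marks the median of all genes tested, 0.01. The intervals of *Nos2* and *Slc7a2* lie above 0 and those of *Gch1* and *Ass1* below it, and that of *Ass1*, the widest, spans -0.95 to -0.12.

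Across the 13 alternative fits, which changed the tool, the scaling, the filter, the libraries, or added a replicate block, *Nos2* (log2 fold change 1.01 to 1.17), *Slc7a2* (0.76 to 1.10), and *Gch1* (-0.55 to -0.37) passed in 13 of 13. *Ass1* passed in 5 of 13 (-0.80 to -0.20). *Asl* (-0.06 to 0.14) and *Odc1* (-0.19 to 0.04) passed in 0 of 13.

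**Figure D3:**
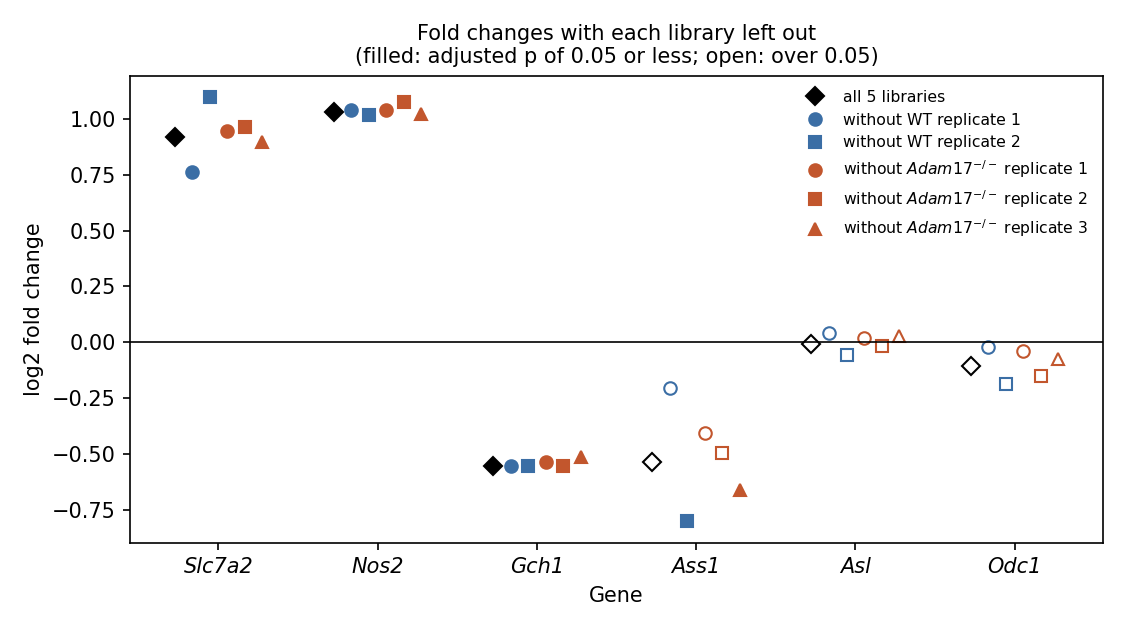
Log2 fold change (y axis) of each gene with all 5 libraries and with each library left out in turn, filled where the adjusted p was 0.05 or less and open elsewhere. The points of *Nos2*, *Slc7a2*, and *Gch1* stay filled and on their own side of 0, whereas those of *Ass1* run from -0.80 to -0.20 and are filled in some fits and open in others.

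Levels of the 6 genes were compared with each other only per length, in FPKM summed over each gene's transcripts. In the WT cocultures the order was *Asl* at 23.9 ± 0.403 FPKM, *Slc7a2* at 19.9 ± 3.90, *Ass1* at 14.0 ± 3.60, *Gch1* at 10.8 ± 0.339, *Nos2* at 10.3 ± 0.191, and *Odc1* at 7.66 ± 0.389 FPKM (mean ± SD, n = 2). From *Asl* down to *Nos2*, each neighbor differed from the next by less than the sum of their SDs, although their ranges did not overlap. In the Adam17-/- cocultures it was *Slc7a2* at 41.6 ± 2.00 FPKM, *Asl* at 26.4 ± 0.871, *Nos2* at 23.3 ± 0.917, *Ass1* at 10.8 ± 1.78, *Gch1* at 8.17 ± 0.25, and *Odc1* at 7.90 ± 0.580 FPKM (mean ± SD, n = 3), and only *Gch1* and *Odc1* differed by less than their spread. *Slc7a2* thus stood above *Asl*, and *Nos2* above *Ass1* and *Gch1*, in the Adam17-/- cocultures, while in the WT cocultures these genes stood in the reverse order by mean. On this scale *Nos2* was at 10.2 and 10.4 FPKM in the WT libraries and at 23.8, 22.3, and 23.9 FPKM in the Adam17-/- libraries.

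**Figure D4:**
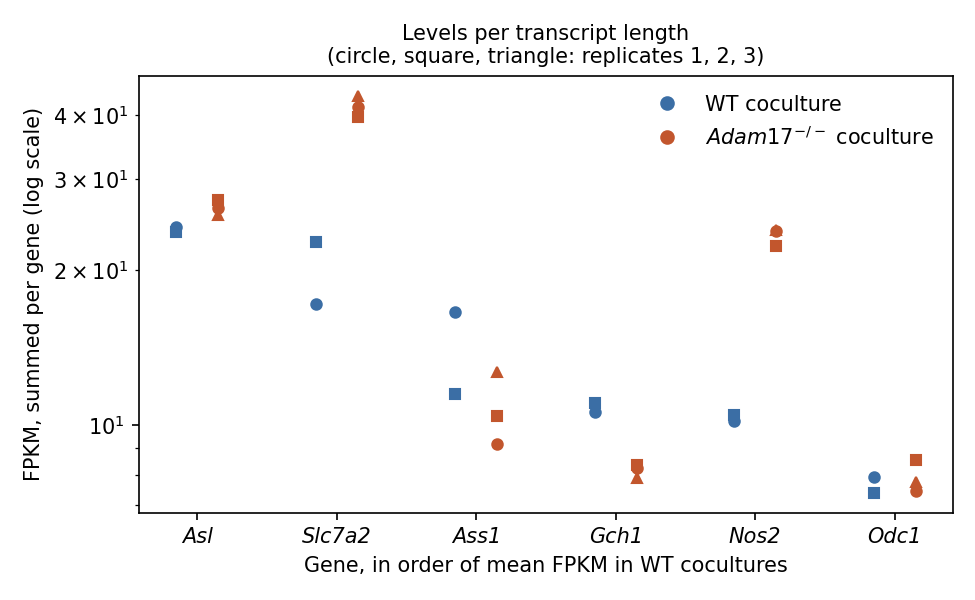
FPKM of each gene (y axis, log scale) in every library, with genes in the order of their mean in the WT cocultures and libraries as points colored by group. *Odc1* lies at 8.55 FPKM or below in every library, and the Adam17-/- points of *Nos2* and *Slc7a2* move up past those of their neighbors.

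The profiles over the 5 libraries also differed among the 6 genes, and the genes most like 3 of them were named by the smallest root mean square difference between log2 CPM profiles, each centered on its own mean, among 8486 genes. For *Nos2* these were *Col20a1* (a collagen; 0.0338), *1700094D03Rik* (0.0605), and *Cd274* (the immune checkpoint ligand PD-L1; 0.0659), beside a median of 0.539 over all genes compared. *Cd274* was at 241 and 234 CPM in the WT and at 465, 456, and 442 CPM in the Adam17-/- libraries. For *Slc7a2* they were *Socs2* (a suppressor of cytokine signaling; 0.0378), *Aim2* (a sensor of cytosolic DNA; 0.0422), and *Gpcpd1* (a phosphodiesterase of phospholipid metabolism; 0.0515), beside a median of 0.505. Like *Slc7a2*, these 3 genes were higher in WT replicate 2 than in WT replicate 1 and higher again in every Adam17-/- library. *Aim2*, for example, was at 59.5 and 74.0 CPM in the WT and at 126, 125, and 126 CPM in the Adam17-/- libraries.

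For *Odc1*, which varied little, *Gtf3c1* (0.0173), *Idua* (0.0209), and *Sh3bp5l* (0.0263) were nearest, beside a median of 0.173. Profiles of 5 libraries that share group and depth describe likeness only.

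Around the 6 genes, 74 further genes of arginine and nitric oxide metabolism, of the signals known to induce *Nos2*, and of those of alternative macrophage activation were examined as 9 lists, and 62 of them were tested. The level that the low-count filter asks for was reached in at least 2 libraries of both groups by 57 of the 62. Of these 57, 5 were higher, 17 were lower, and 35 did not pass, with a median log2 fold change of -0.21 beside 0.01 for all genes tested. The other 5 genes entered the test through 1 group and are left out of the counts and medians. Among all genes tested, 16.8% were lower and 14.9% higher. The split between higher and lower depended on scaling. With library size alone it was 9 higher and 9 lower, and the median of all genes then moved to 0.16. Of the 22 calls, 9 (3 higher and 6 lower) held in every alternative fit that gave an adjusted p.

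**Figure D5:**
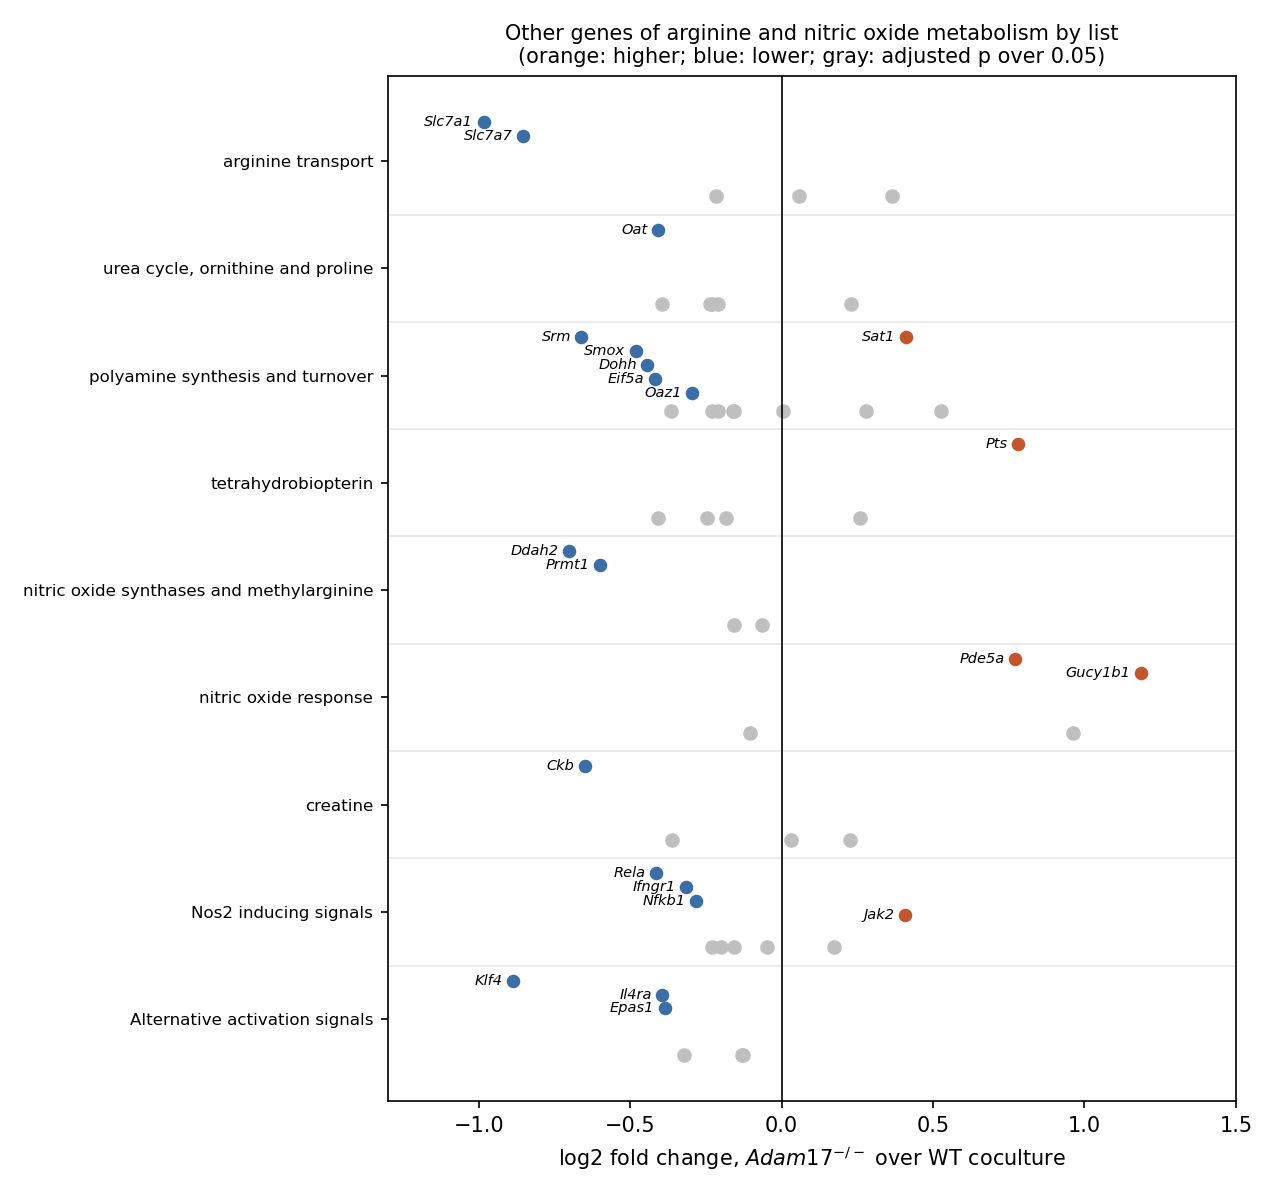
Log2 fold change (x axis) of the 57 further genes at the filter's level in both groups, 1 band a list, with genes that passed named and set above the gray points of those that did not. Most named points lie left of 0 (17 of 22), and those on the right are *Sat1*, *Pts*, *Pde5a*, *Gucy1b1*, and *Jak2*.

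Among other genes of arginine transport, 5 of 7 reached the filter's level in both groups, of which 0 were higher and 2 were lower (median log2 fold change -0.22). The median over all 7 was 0.06, so its sign turns on *Slc7a3* and *Slc25a2*, a mitochondrial ornithine carrier, which were left out for their low level in the WT libraries. *Slc7a1*, the transporter CAT-1 found in most cells, was at 21.4 and 15.5 CPM in the WT and at 8.54, 10.5, and 9.05 CPM in the Adam17-/- libraries (log2 fold change -0.98, standard error 0.158, adjusted p = 0.00215, edgeR). *Slc7a7*, which with *Slc3a2* exchanges cationic for neutral amino acids, was at 85.9 and 71.9 CPM against 44.3, 44.8, and 42.0 CPM (-0.85, standard error 0.0974, adjusted p = 0.000576, edgeR). These transporter genes fell in the libraries where *Slc7a2* rose. *Slc7a3*, the transporter CAT-3 best known from neurons, had 5 and 4 counts in the WT and 25, 18, and 26 counts in the Adam17-/- libraries, that is 0.262 and 0.216 CPM against 1.18 to 1.38 CPM. It passed the filter only through the Adam17-/- libraries, where it was high, so that its values are given as a description with no test.

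Of 6 genes at the filter's level in both groups in the list of the urea cycle and of ornithine and proline metabolism, 0 were higher and 1 was lower (median -0.23). *Oat*, ornithine aminotransferase, which leads ornithine toward proline and glutamate, was at 49.2 and 53.1 CPM in the WT and at 39.0, 38.5, and 38.2 CPM in the Adam17-/- libraries (log2 fold change -0.41, adjusted p = 0.00694, edgeR), a call held in 9 of 13 alternatives and lost, for example, when libraries were scaled by size only (adjusted p = 0.0508, edgeR). *Cps1* and *Otc*, the mitochondrial urea cycle enzymes of the liver, had no entry in any library, and were named after this had been seen. Of the polyamine genes, 1 of 14 was higher and 5 were lower (median -0.22). *Eif5a*, the translation factor that carries the spermidine-derived residue hypusine, changed by -0.42 on the log2 scale (standard error 0.0752, adjusted p = 0.00363, edgeR), *Smox*, spermine oxidase, by -0.48 (standard error 0.0929, adjusted p = 0.00505, edgeR), and *Srm*, spermidine synthase, by -0.66 (standard error 0.174, adjusted p = 0.0188, edgeR). The call on *Srm* was lost without WT replicate 1 (adjusted p = 0.0818, edgeR) and without Adam17-/- replicates 1 or 2 (0.0698 and 0.0682). *Sat1*, which acetylates spermidine and spermine for export, rose from 133 and 144 CPM to 188, 188, and 176 CPM (0.41, adjusted p = 0.00578, edgeR).

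For tetrahydrobiopterin, 1 of 5 tested genes was higher and 0 were lower (median -0.18). *Pts*, the enzyme that acts next after *Gch1*, was at 17.2 and 20.2 CPM in the WT and at 33.9, 31.6, and 31.0 CPM in the Adam17-/- libraries, with no overlap (log2 fold change 0.78, standard error 0.109, adjusted p = 0.00121, edgeR). The RNA of the first and the RNA of the second enzyme of cofactor synthesis thus changed in opposite directions. *Spr*, the last step, had a log2 fold change of -0.41 and did not pass (adjusted p = 0.0514, edgeR), and was named after its value had been seen.

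Of 4 tested genes in the list of nitric oxide synthases and methylarginine, 0 were higher and 2 were lower (median -0.38). *Prmt1*, which methylates arginine residues in proteins and so is a source of the synthase inhibitor dimethylarginine, was at 27.5 and 25.9 CPM in the WT and at 18.1, 17.9, and 16.8 CPM in the Adam17-/- libraries (log2 fold change -0.60, adjusted p = 0.00244, edgeR). *Ddah2*, a member of the family that degrades dimethylarginine, was at 8.22 and 6.93 CPM against 4.98, 3.95, and 4.98 CPM (-0.70, adjusted p = 0.0128, edgeR; 0.0519 without WT replicate 1). In the nitric oxide response, 2 of the 4 genes at the filter's level in both groups were higher and 0 were lower (median 0.87), at low levels. *Gucy1b1*, a subunit of the guanylate cyclase that senses nitric oxide, was at 1.94 and 1.89 CPM in the WT and at 2.96, 5.85, and 4.39 CPM in the Adam17-/- libraries (log2 fold change 1.19, adjusted p = 0.015, edgeR). *Gucy1a1*, another gene of this cyclase, overlapped between the groups, at 1.10 and 0.920 CPM against 0.876, 2.43, and 2.65 CPM. It did not pass (adjusted p = 0.132, edgeR) and was named after its values had been seen. *Pde5a*, which breaks down the cyclic GMP that this cyclase makes, had a log2 fold change of 0.77 (adjusted p = 0.0401, edgeR) and passed in 6 of 13 alternatives, losing its call without WT replicate 1 (adjusted p = 0.157, edgeR), without Adam17-/- replicates 2 or 3 (0.114 and 0.122), with DESeq2 (0.078), with both FPKM fits (0.0569 and 0.0628), and with the replicate block (0.0916). In creatine metabolism, which starts from arginine, 0 of 4 were higher and 1 was lower (median -0.17), namely the creatine kinase *Ckb* (-0.65, adjusted p = 0.0108, edgeR; 0.0513 without Adam17-/- replicate 1).

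Of 9 genes of the signals known to induce *Nos2*, 1 was higher and 3 were lower (median -0.20). *Jak2*, a kinase of the interferon gamma receptor, had a log2 fold change of 0.41 (adjusted p = 0.0166, edgeR), while the receptor chain *Ifngr1* (-0.32, adjusted p = 0.0135, edgeR) and the NF-κB subunits *Rela* (-0.41, adjusted p = 0.0161, edgeR) and *Nfkb1* (-0.28, adjusted p = 0.0368, edgeR) were lower. None of these 4 calls held with every library left out in turn, and over the 13 alternatives *Jak2* passed in 9, *Ifngr1* and *Rela* in 7 each, and *Nfkb1* in 4. Without Adam17-/- replicate 1 the adjusted p was 0.0755 for *Jak2*, 0.082 for *Ifngr1*, 0.0784 for *Rela*, and 0.106 for *Nfkb1*, and at least 1 of these calls was also lost without each of Adam17-/- replicates 2 and 3 and WT replicate 1. With library size only, the lower calls were lost as well (adjusted p = 0.117 for *Ifngr1*, 0.0623 for *Rela*, and 0.242 for *Nfkb1*, edgeR). Of the interferon factors, *Irf8* was at 462 and 424 CPM in the WT and 376, 385, and 373 CPM in the Adam17-/- libraries, without overlap. Its change of -0.23 on the log2 scale did not pass (adjusted p = 0.0532, edgeR), and *Irf8* was named after its values had been seen. *Irf1* was at 104 and 98.2 CPM in the WT and at 118, 111, and 113 CPM in the Adam17-/- libraries, with no overlap. It did not pass (adjusted p = 0.13, edgeR) but did in 4 of 13 alternatives (log2 fold change 0.13 to 0.32 over the 13), and was named after its values had been seen.

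Of 7 genes of alternative macrophage activation, the state that IL-4 and related signals induce, 6 reached the filter's level in both groups, of which 0 were higher and 3 were lower (median -0.35). *Klf4*, a factor that acts with STAT6 downstream of IL-4, was at 63.7 and 56.3 CPM in the WT and at 30.4, 34.9, and 32.2 CPM in the Adam17-/- libraries, and passed in 13 of 13 alternatives (log2 fold change -0.89, standard error 0.0976, adjusted p = 0.000544, edgeR). The IL-4 receptor chain *Il4ra* (-0.39, adjusted p = 0.0136, edgeR) and the hypoxia factor *Epas1* (-0.39, adjusted p = 0.0226, edgeR) fell by less. The call on *Il4ra* was lost without Adam17-/- replicates 1 or 2 (adjusted p = 0.0778 and 0.0555, edgeR), and that on *Epas1* without any replicate but WT replicate 2 (0.0514 to 0.1). Neither passed with library size only (0.0534 and 0.106), and over the 13 alternatives *Il4ra* passed in 8 and *Epas1* in 5. *Pparg*, a nuclear receptor of lipid metabolism, lay the other way at low levels, at 1.62 and 0.433 CPM in the WT and 2.41, 2.17, and 2.44 CPM in the Adam17-/- libraries, with no overlap. It reached the filter's level in 1 WT library only, so that its values are given as a description with no test, and it was named after they had been seen.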

How the data were processed

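The data were 5 RNA-Seq libraries of BMDMs, grouped by the sample labels into 2 WT and 3 Adam17-/- cocultures. Libraries were made from polyA RNA and sequenced on a BGISEQ-500. According to the study's methods, reads were aligned to GRCm38 with HISAT and quantified with Bowtie2. The submitters' processing notes name mm10, Bowtie2, RSEM, Bowtie, and DESeq2, and versions and strand settings are not given in the sources used here. Values deposited by the authors are, per transcript and library, an expected count without normalization and an FPKM, which the authors scaled to length and depth. The lowest FPKM listed is 0.01, and unlisted transcripts were set to 0. Reads shared by several transcripts are divided among them in an expected count, and 12.0% to 12.7% of the sums per gene were not whole (tolerance 0.05). Of the 6 genes, this held in at least 1 library for *Slc7a2*, *Ass1*, and *Odc1*.

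Sums of expected counts per gene were rounded and then fitted in R 4.3.3 by edgeR 4.0.16 (TMM, filterByExpr, glmQLFit, and glmQLFTest, without covariates), with Benjamini-Hochberg adjustment over 12576 genes and a threshold of 0.05. Levels are TMM-normalized CPM or summed FPKM, and a prior count of 2 was used for log2 profiles. Total counts were 20788373 and 19204243 in the WT and 17421992, 14658694, and 18210258 in the Adam17-/- libraries. The 6 genes and the lists were chosen with earlier results of these data known, and a few further genes of the set and lists are not reported here. Named genes were the 6 genes, up to 3 genes per direction and list with the lowest adjusted p, the 3 genes most like *Nos2*, *Slc7a2*, and *Odc1* with a mean of 10 CPM or more, the cell type markers, and *Adam17*. Genes named beyond this rule were chosen after their values had been seen. List genes that reached the filter's level in fewer than 2 libraries of a group were left out of list counts, medians, and the plot of lists, a choice made after their values had been seen. Alternatives were another tool (DESeq2 1.42.0), scaling by upper quartiles or by library size only, limma 3.58.1 on the log2 of FPKM plus 0.1 or plus 1, no filter or a minimum of 10 counts per sample, stricter thresholds, a replicate block, and leaving out each library. The fit was checked on simulated data. Gene positions came from RefSeq and exon positions and sequences from GENCODE, both on GRCm38. Python 3.11.15, pandas 2.3.3, and matplotlib 3.10.9 were also used.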

Additional observations from a re-analysis of the deposited data

How the results depend on the processing

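*Nos2*, *Slc7a2*, and *Gch1* kept their direction and call under each of the 13 alternative fits. *Ass1*, not called at first, passed with DESeq2 (-0.53) and without a filter on low counts (-0.53), and ran from -0.80 to -0.20 with 1 library left out. *Tlr4*, a listed receptor that did not pass and was named after its values had been seen, turned from -0.05 to 0.37 without WT replicate 2 (adjusted p = 0.00238, edgeR) and was -0.37 without WT replicate 1. The count of the 6 genes called lower was 2 with DESeq2 and without the filter, and 1 to 2 with 1 library left out (2 without WT replicate 2 or Adam17-/- replicate 3). Requiring an absolute log2 fold change of 1 left 1 higher and 0 lower, and an adjusted p of 0.001 with a change of 0.25 left 0 lower.

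The share of higher among all calls was 46.9%, but 73.7% with library size only, 74.2% with log2(FPKM + 0.1), and 73.9% with log2(FPKM + 1), where the median of all genes was 0.16, 0.15, and 0.11. In that order, calls over all genes, 1869 higher and 2114 lower at first, became 3019 and 1077, 2927 and 1016, and 2867 and 1011, and calls among the 57 further genes at the filter's level in both groups, 5 and 17 at first, became 9 and 9, 8 and 9, and 9 and 9. With 1 library left out, all genes gave 1072 to 2501 higher and 935 to 2912 lower, and the further genes 3 to 8 higher and 8 to 25 lower. The highest of these counts came without WT replicate 2, and the lowest without Adam17-/- replicate 1, except for the further genes called higher, which were fewest without Adam17-/- replicates 2 or 3. The stricter rules gave 422 and 109 (change of 1) and 132 and 179 (adjusted p of 0.001) over all genes, and 1 and 0, and 0 and 2, among the further genes. With 1 WT library left, that library is assumed to vary like the Adam17-/- group.

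The replicate numbers 1 and 2 occur in both groups but the labels tie them to no shared animal or day. Between same-numbered libraries, the correlation of deviations across genes was -0.124 for number 1 and -0.0504 for number 2. With 2 WT libraries the deviations of each mirror those of the other, so that these values cannot decide whether the numbers are paired. Adam17-/- replicate 3 has no WT library of its number, so that a block fit takes the group difference from the other libraries. With the replicate number as a block, calls over all genes were 1216 higher and 1126 lower, the further genes had 3 higher and 11 lower, and the 6 genes had 2 lower, with *Ass1* at -0.66 (adjusted p = 0.0158, edgeR). The cause of these shifts was not tested.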
